A study of Mus musculus with 8 samples.

Results

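The 129-only windows are stretches of autosomes in which the median gene gave nearly all its allelic reads from the 129 allele in wild-type mouse embryonic fibroblasts (MEFs). Autosomes other than 5, 9, 12, 13 and 14 were cut into non-overlapping windows of 1 Mb (GRCm38), and each gene was placed by its start. A window was informative when it held 1 or more genes with 10 or more allelic reads in the WT pool. It was called 129-only when the median 129 share of those genes, that is 129 reads divided by all allelic reads, was 95% or more. Of 1447 informative windows on the 14 autosomes, 703 met the rule, or 48.6%, and all autosomes together held 1949 informative windows. The windows were chosen by these WT shares, which are therefore given as a description only.

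RNA-seq was performed on clonal female MEF lines from a cross labelled 129S1/SvImJ x CAST/EiJ, which the study describes as 129Sv4/Jae for the inactive X chromosome and CAST/EiJ for the active X chromosome. The 4 groups of 2 samples were WT, XiΔXist, which lacks the noncoding RNA Xist on the inactive X, XiΔXist shSCR, which received a lentivirus with a scrambled short hairpin RNA, and XiΔXist shYY1, which received hairpins directed at YY1, a zinc finger transcription factor. Both hairpin groups thus also carried the Xist deletion. The deposited counts pool the 2 samples of a group into 1 column per allele, so no spread between replicates could be computed, and each line stands for a clone rather than for a genotype in general. The pools held 24310035, 28329701, 2393545 and 2504345 allelic reads, and the 14 autosomes held 9204, 8924, 7787 and 7834 genes with 10 or more reads in WT, XiΔXist, shSCR and shYY1, respectively. Per the study, the libraries of the hairpin groups were sequenced with longer reads than the other libraries.

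The labels were checked first. Xist had 35405 allelic reads in the WT pool and 21, 0 and 6 in the XiΔXist, shSCR and shYY1 pools. Yy1 was at 63.3, 59.9, 99.0 and 36.7 CPM (allelic reads scaled to equal library totals) in the same order. Of 16 fibroblast markers, 2, 1, 3 and 2 were at 0 in the 4 pools, among them Twist1 in each, and their summed level was 6489 to 10701 CPM. Markers of epithelium, endothelium, blood and pluripotent cells summed to at most 16.8 CPM in any pool, and those of neural cells to between 30.3 and 93.6. The share of mitochondrial reads differed between the pools, from 20.2% in WT to 39.5% in shYY1. Shares below are rounded, so that 100% may include a few CAST reads where the counts are not given.

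In a first-generation cross between inbred strains, every autosomal locus carries a copy from each parent strain, and most genes give reads of both alleles. When a parent or grandparent is itself of mixed origin, meiotic recombination passes on alternating segments, so that a descendant can be heterozygous in one stretch of a chromosome and homozygous in the next. Allelic RNA-seq reads such a pattern gene by gene, since a homozygous gene yields reads of a single strain. A read assigned to 129 may come from any strain with the same base as 129S1/SvImJ, and homozygosity by descent and loss of the CAST copy before the cells were sampled cannot be told apart from these shares alone.

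A pair of borders of different segments on chromosome 2 shows how abruptly the allelic state could change between neighbouring genes. The first opened the segment chr2:28000001-40000000, and the second closed the segment chr2:150000001-154000000. Both-allele windows and other 129-only segments lay between them. From left to right along the chromosome, Mrps2 (a mitochondrial ribosome protein) lay on the both-allele side and Tsc1 (hamartin, an inhibitor of mTORC1 signalling) on the 129-only side of the first, and Asxl1 (a Polycomb-associated protein) lay on the 129-only side and Commd7 on the both-allele side of the second. These borders were drawn gene by gene. Blocks are made of whole windows, so Mrps2 and Commd7 still start in the outermost window of a 129-only block. The starts of these 4 genes are printed because the change of allelic state lay between them. Each line gives the 100 bases before the RefSeq start of the gene in lower case and the first 10 bases from that start in capitals, 5′ to 3′ on the strand of the gene. The letters are those of the reference genome (GRCm38.p6), in which bases that differ between 129 and CAST are not marked.
Mrps2, both-allele side, chr2:28467966-28468075, plus strand: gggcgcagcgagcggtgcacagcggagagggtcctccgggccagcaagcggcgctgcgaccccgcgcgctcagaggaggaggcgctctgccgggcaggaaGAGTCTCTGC
Tsc1, 129-only side, chr2:28641133-28641242, plus strand: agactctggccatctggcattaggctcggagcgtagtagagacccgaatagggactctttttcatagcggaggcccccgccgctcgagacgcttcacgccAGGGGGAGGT
Asxl1, 129-only side, chr2:153345730-153345839, plus strand: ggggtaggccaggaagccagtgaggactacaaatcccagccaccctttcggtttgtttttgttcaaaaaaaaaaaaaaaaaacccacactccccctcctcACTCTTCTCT
Commd7, both-allele side, chr2:153632772-153632881, minus strand: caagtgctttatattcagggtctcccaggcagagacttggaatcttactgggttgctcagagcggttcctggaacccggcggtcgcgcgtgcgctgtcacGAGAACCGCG

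At the first border, 54 of 123 reads of Mrps2 carried the 129 base in WT, a share of 43.9% (Wilson 95% interval 35.4% to 52.7%). Tsc1 gave 511 of 511 reads from 129, which allows a CAST share of up to 0.587%. The change therefore fell within the 170 kb between both genes, chr2:28471179-28641227. In XiΔXist the shares were 37.9% for Mrps2 and 100% for Tsc1, in shSCR 18 of 24 reads and 100%, and in shYY1 51.4% (37 reads) and 100%. At the second border Asxl1 was at 100% in all 4 pools, from 252 to 473 reads. Commd7, across a gap of 213 kb (chr2:153404008-153616932), was at 68.3%, 74.4%, 82.3% and 85.5% in WT, XiΔXist, shSCR and shYY1. The inner gene had no CAST read in any pool at either border, whereas the outer gene had CAST reads in every pool. The block behind the second border was less uniform than that behind the first. In WT 27 of its 43 genes were at 95% or more and 88.0% of its summed reads were from 129. Behind the first border these values were 80 of 86 genes and 97.8%. Both counts include genes past the border.

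The narrowest border lay on chromosome 15. Derl1 and Tbc1d31 were separated by 19.8 kb (chr15:57892449-57912198), and Derl1, which acts in the disposal of misfolded proteins of the endoplasmic reticulum, gave 45.8% 129 reads of 2895 in WT, 46.7% of 3412 in XiΔXist, 53.4% of 262 in shSCR and 53.5% of 273 in shYY1. Tbc1d31 gave 99.9% of 1097, 99.9% of 1018, 100% of 112 and 100% of 145 reads. Further borders lay between Fez2 and Strn on chromosome 17 (232 kb) and between Zcchc14 and Slc7a5 on chromosome 8 (228 kb). Strn was at 99.9% or 100% and Fez2 between 58.7% and 64.3% in the 4 pools. Zcchc14 was at 100% in each, and Slc7a5, a subunit of a neutral amino acid transporter, between 47.7% and 52.6%. The borders were chosen after their values in WT were seen, and the 3 other pools did not enter the choice of side.

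Windows were joined into blocks to measure the segments. A block was a run of successive informative windows that were all 129-only, and windows without an informative gene did not end it. The 703 windows formed 116 runs, of which 28 held 1 window and 15 held 2. The other 73 runs, called long blocks, held 645 informative windows and 4197 genes with 10 or more reads. They spanned 770 Mb, which includes windows without an informative gene and thus without allelic reads to judge them. Their median length was 8 Mb, the shortest were 3 Mb and the longest was 47 Mb, and 28 reached 10 Mb or more.

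**Figure D1:**
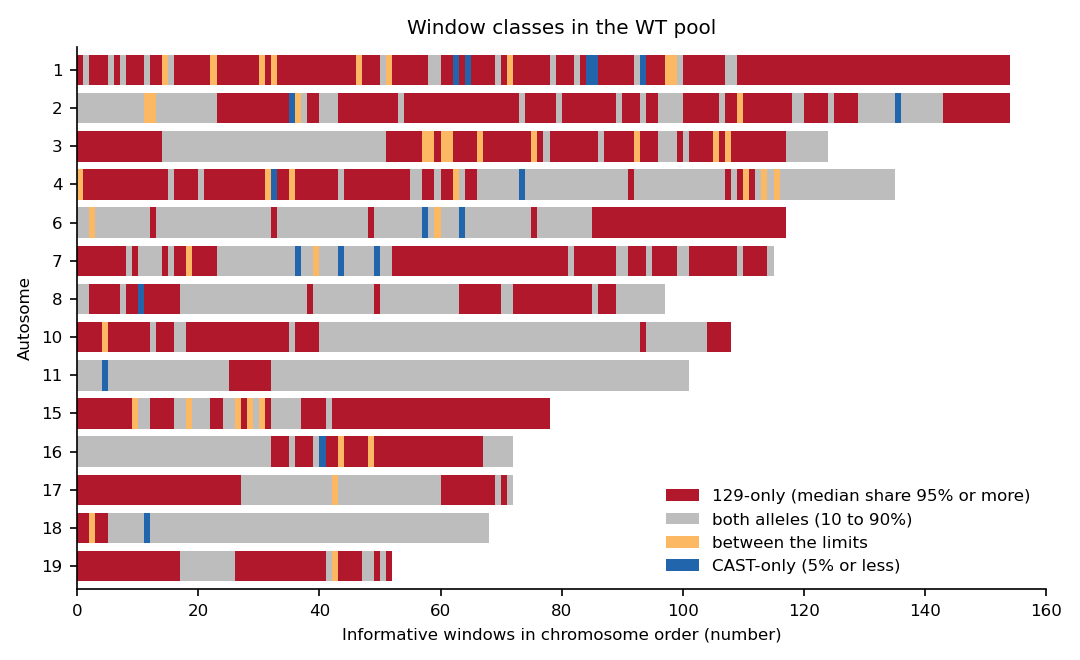
Each bar is an autosome and each slot an informative 1 Mb window of the WT pool in chromosome order, coloured by the median 129 share of its genes. The 703 129-only windows (red) lie in runs that alternate with both-allele windows (grey), and chromosomes 11 and 18 hold few of them.

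The share of windows that were 129-only differed widely between chromosomes. It was 81.2% on chromosome 1 (125 of 154 windows), 73.1% on chromosomes 15 (57 of 78) and 19 (38 of 52), 63.0% on chromosome 2 (97 of 154) and 61.7% on chromosome 7 (71 of 115). On chromosomes 11 and 18 it was 6.93% (7 of 101) and 5.88% (4 of 68), and the remaining autosomes lay between 30.8% and 52.4%. Chromosome 18 held no long block, and chromosome 11 held a single long block of 12 Mb. Chromosome 1 held 4 blocks of 10 Mb or more, 85 Mb in all, and chromosome 2 held 5 that came to 66 Mb.

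The longest block covered the last 47 Mb of chromosome 1 (chr1:149000001-196000000) with 335 genes and 573576 reads in WT. The genes with most reads in it were Prrx1, a homeobox factor of mesenchymal cells, Ddr2, a collagen receptor kinase, and Hnrnpu, a nuclear RNA-binding protein. Prrx1 had 51823 reads in WT and was at 99.9% 129 in WT and in XiΔXist and at 100% in shSCR and shYY1. Ddr2 and Hnrnpu lay between 99.8% and 100% in the 4 pools. The outermost genes inside were the pseudogene Gm15443 on the left, at 87.7% of 227 reads, and Cr2, a complement receptor, on the right, at 100% of 15 reads. The nearest gene outside was Brinp3, at 48.0% of 25 reads. Brinp3 had no read in the 3 other pools, so this end rests on the WT pool. In each of those pools the nearest left end of a run lay 13 Mb away. Their longest blocks spanned 60 Mb in XiΔXist, 66 Mb in shSCR and 60 Mb in shYY1.

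The second block ran to the end of chromosome 15 (chr15:63000001-104000000) with 252 genes. Its genes with most reads were the amino acid transporter gene Slc38a2 (45236 reads in WT), Ccn4, a secreted matricellular protein, and Cbx5, a heterochromatin protein. They lay between 99.8% and 100% in all 4 pools. The outermost left gene Fam49b and the rightmost gene Itga5, the fibronectin receptor alpha subunit, were both at 100% in WT, from 289 and 20 reads. The first gene outside, the pseudogene Tsg101-ps, was at 38.6% of 645 reads in WT and at 41.5%, 76.2% and 59.3% in the other pools. In WT 1 informative window of 2 genes separated this block from another long block, chr15:58000001-62000000. The median share of that window was 69.2% in WT, 70.8% in XiΔXist and 100% in shSCR and shYY1. The Derl1 border above lay just outside the left end of that other block. Its inner gene Tbc1d31 started in the both-allele window before the block.

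The third block covered the end of chromosome 6 from Atg7, an autophagy enzyme, onwards (chr6:114000001-150000000, 194 genes). Emp1, an epithelial membrane protein gene, had 52478 reads in WT and was at 100% in every pool, while Ppfibp1 and the chemokine gene Cxcl12 lay at 99.9% or 100%. Sec13, a coat protein of secretory vesicles, was the first gene outside and gave 58.2% of 196 reads in WT, 62.3% of 231 in XiΔXist, 42.9% of 14 in shSCR and 47.6% of 21 in shYY1. The last gene inside was the noncoding Gm21814, at 100% of 11 reads.

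The fourth block lay inside chromosome 7 (chr7:73000001-107000000, 184 genes) and held Prss23, a secreted protease, and Serpinh1, the collagen chaperone HSP47, at 99.8% to 100% in the 4 pools. Its outermost genes were A730056A06Rik and Gm8995, both at 100% in WT from 42 and 19 reads, and the nearest outside were the pseudogenes Rpl17-ps10 at 50% of 14 reads and Gm10156 at 30% of 10 reads. Gm10156 was the only gene in the 1 informative window before the next long block, chr7:108000001-115000000. It was at 26.7% of 15 reads in XiΔXist, 0% of 364 in shSCR and 0% of 401 in shYY1. The fifth block opened chromosome 17 (chr17:3000001-34000000, 221 genes). Its leading genes were the splicing factor Srsf3, the chromatin remodeller Chd1 and Ergic1, at 99.7% to 100% in each pool. On its right, Vps52 inside was at 100% of 12 reads, and Brd2, the first gene outside, was at 100% of 927 reads as well. The 129-only state therefore continued past the window border there. On its left the pseudogene Gm10232 was at 89.5% of 38 reads in WT but at 23.8% of 80 in shSCR and 37.0% of 73 in shYY1.

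**Figure D2:**
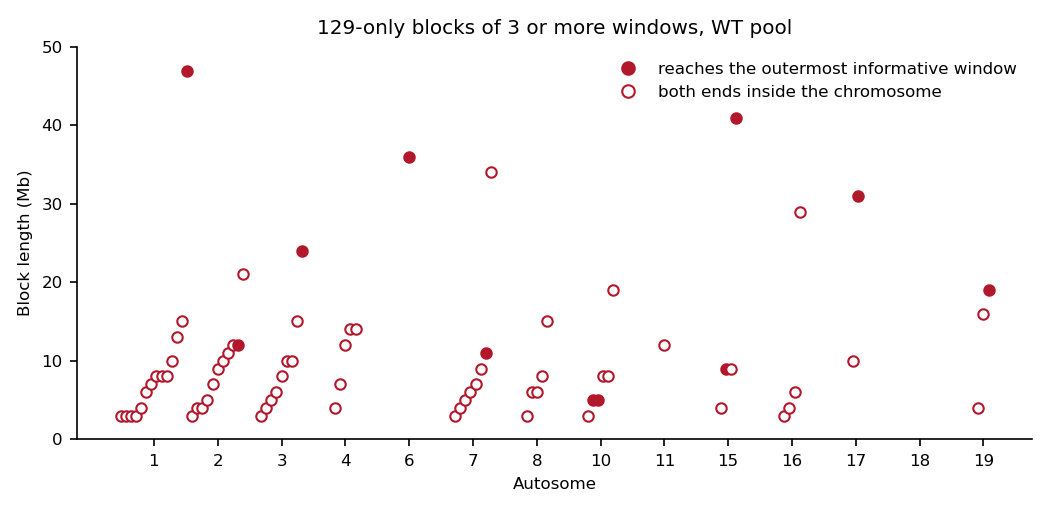
Each point is 1 of the 73 long 129-only blocks of the WT pool, placed by autosome and by length in Mb, and filled where the block reaches the outermost informative window of its chromosome. The longest blocks of chromosomes 1, 15, 6 and 17, at 47, 41, 36 and 31 Mb, reach such a window.

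Of the 146 ends of long blocks, 11 lay at the outermost informative window of a chromosome. At the other 135 the next window had a median 129 share of 30% to 70% in 46 cases, of over 70% but under 95% in 79 and of under 30% in 10. In 34 cases that window rested on 1 gene. Of 60 gaps between successive long blocks of a chromosome, 24 were a single informative window, and 16 of these were over 70%. Part of the ends set by the rule are thus interruptions by a few genes. Where 1 window below the threshold was passed over, 45 long blocks remained and the longest spanned 65 Mb.

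Both informative windows beyond the end lay at 30% to 70% at 17 ends. At 13 of these, the 4 nearest protein coding genes with 50 or more reads in WT and in XiΔXist were at 95% or more on the 129-only side of a border between genes and the 4 nearest were at 80% or less on its other side. The outer gene itself (Mrps2, Fez2, Commd7 and Slc7a5) started in the outermost window of the block at 4 of the 13. The interval between the inner and the outer gene had a median of 1006 kb and ranged from 19.8 to 2157 kb. In XiΔXist, which did not enter the choice beyond its read minimum, the inner gene was at 95% or more and the outer gene under 80% at 13 of 13 borders. In shSCR the inner gene was at 95% or more at 13 borders and the outer gene under 80% at 10, and in shYY1 at 12 and 11.

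**Figure D3:**
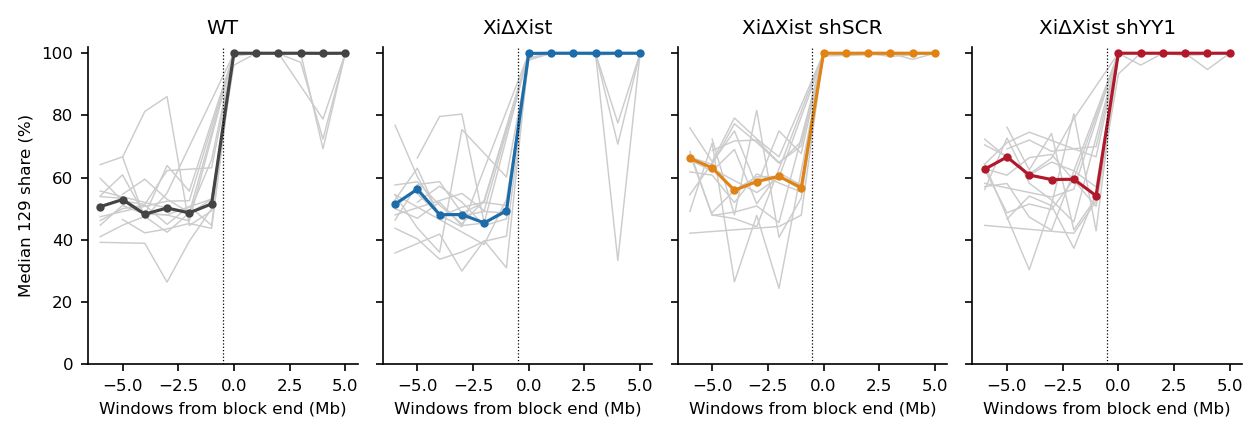
Median 129 share of 1 Mb windows (y axis, %) against distance in windows from the block end (x axis, Mb, 0 is the outermost 129-only window of WT and positive values lie inside) for 13 borders in the 4 pools; grey lines are single borders and points their median. The median steps from 51.5% to 100% in WT and from 49.3% to 99.9% in XiΔXist, and grey lines that drop inside belong to short blocks that ended within the plotted distance.

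The classes recurred in the 3 pools that the rule did not use. Of the 703 windows, 683 were informative in XiΔXist, and 665 of these were 129-only there, which is 97.4% (Wilson 95% interval 95.9% to 98.3%), against 49.0% of all informative windows of that pool. In shSCR 627 of 654 were 129-only (95.9%, against 49.7% of all windows), and in shYY1 628 of 652 (96.3%, against 49.8%). Among the 646 windows informative in all 4 pools, 606 were 129-only in each. In the opposite direction, 95.8% of the 694 windows that were 129-only in XiΔXist were so in WT, and the 20 that fell below the limit in WT had a median WT share of 92.8%.

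**Figure D4:**
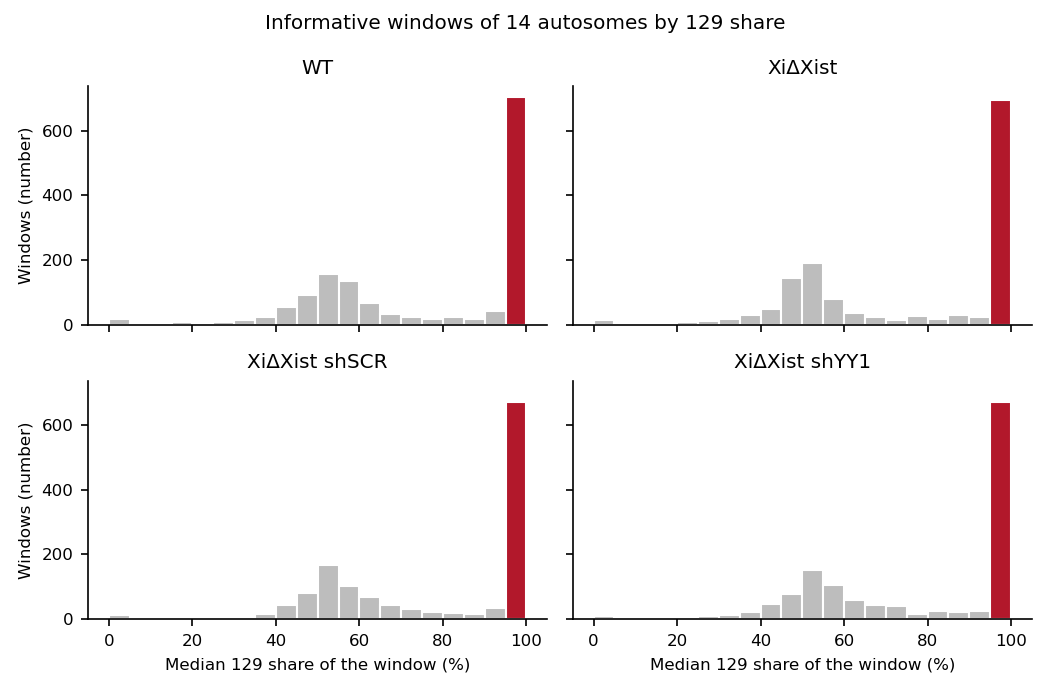
Number of informative windows (y axis) by the median 129 share of their genes (x axis, %, in steps of 5 points) in each pool, with shares of 95% or more in red. In WT 703 windows lie in the red bar, 573 lie between 30% and 70%, and 123 lie over 70% but under 95%.

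Agreement did not rest on windows with many genes. For windows with 1 gene, 79 of the 81 informative in XiΔXist were 129-only there (97.5%), for those with 2 to 4 genes 209 of 217 (96.3%) and for those with 5 or more 377 of 385 (97.9%), and the intervals overlapped. Of the 73 long blocks, 61 had every informative window 129-only in XiΔXist, 56 in shSCR and 57 in shYY1. An end of a run lay at the same window in XiΔXist for 119 of the 146 block ends, and in shSCR and shYY1 for 82 and 85. The nearest end of a run lay at most 13, 32 and 14 Mb away in XiΔXist, shSCR and shYY1. Of the 10 longest blocks, 9, 6 and 5 had every informative window 129-only in these pools. The hairpin pools held far fewer reads, and fewer genes per window were informative there. The part of this in their lower agreement was not tested.

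The 18 windows that were not 129-only in XiΔXist were mostly near the limit or held few genes. In 7 of them the XiΔXist median was still 90% or more, and 9 held 3 or fewer genes in WT. The widest difference was in chr1:101000001-102000000, where the single gene Gm28187 went from 100% of 10 reads in WT to 0% of 11 in XiΔXist. A window with more genes was chr11:46000001-47000000, led by Med7, whose median over 8 genes was 100% in WT, 52.3% in XiΔXist and 100% in both hairpin pools. Its summed share moved the other way, from 79.1% in WT to 87.4% in XiΔXist. In 4 windows every other pool was below the limit. An example is chr1:21000001-22000000, led by the pseudogene Gm7658, with medians of 100%, 50%, 0% and 0%. Summed over its genes it was mostly CAST in every pool, with 2.68% 129 reads of 5107 in WT, 0.836% of 6459 in XiΔXist and none of 246 and 255 in shSCR and shYY1, and its WT median came from 5 genes of which Gm7658 held most reads.

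Just inside the limit lay the windows led by Cdh18 (76 of 80 reads, 1 gene), Anapc1 (median 95.005%, 8 genes) and Ptgfr (95.07%, 3 genes). Just outside lay those led by Trps1 (339 of 357 reads, 1 gene), Rps3a1 (94.9%, 7 genes) and Zeb2 (94.7%, 3 genes). Anapc1 itself was at 99.9% of 6144 reads, whereas Zeb2 was at 68.7% of 681.

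Genes of the 129-only windows gave similar numbers of reads to genes that were read from both alleles. In WT the median protein coding gene had 62.9 allelic reads per kb of exon in the 129-only windows and 60.7 in the 682 both-allele windows (median share of 10% to 90%). Counted by allele, the medians were 60.3 reads of 129 and 0 of CAST per kb in the 129-only windows, and 32.0 and 24.5 in the both-allele windows. In XiΔXist the totals were 61.1 and 61.8. The median of 129 reads in the 129-only windows (60.3) lay close to the median total of the both-allele windows (60.7). These medians come from different genes, and what sets them was not tested. These values also depend on how many strain differences a gene carries, which was not measured here.

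Gene types were close as well. Of 4515 genes in the 129-only windows, 80.1% were protein coding and 3.94% pseudogenes, against 80.4% and 5.70% of 4418 genes in the both-allele windows, and the median gene had 184 and 184.5 reads. At the level of single genes, 4081 of the 4515 (90.4%) had a 129 share of 95% or more in WT and 2809 had no CAST read. The same held for 90.2%, 91.5% and 91.5% of the genes with 10 or more reads in XiΔXist, shSCR and shYY1. Summed over these genes, 98.0%, 98.0%, 97.9% and 97.9% of the reads were from 129 in WT, XiΔXist, shSCR and shYY1.

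Of 144426 CAST reads inside the 129-only windows in WT, 49.5% belonged to 20 genes and 25.4% to pseudogenes, which held 0.934% of all reads there. In the long blocks 86 genes had a 129 share under 50%, of which 2 (Mrps2 and Gm17709) lay on the both-allele side of a border between genes. Of these 52 were pseudogenes (60.5%) and 48 (55.8%) had a near-identical copy elsewhere, that is another gene whose longest transcript matched 50% or more of theirs at 90% identity or more. Among the 3820 genes of the long blocks at 95% or more, 1.94% were pseudogenes and 4.14% had such a copy. Reads of near-identical genes may be counted for the wrong copy, and part of these CAST reads may belong to genes outside the blocks; this was not tested.

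Among the 10 such genes with most reads, 8 were processed pseudogenes, copies of a spliced transcript inserted elsewhere in the genome. Rpl39-ps had 0.253% 129 reads of 4354 in WT and 0.249%, 0% and 0.224% in the other pools. Gm7658 gave 0% of 4958, Gm15428 3.87% of 2067, Gm3531 22.1% of 1588, Gm2962 24.7% of 4137 and Tcea1-ps1 34.2% of 1516 reads in WT. Gm16399 had 5185 and 4872 reads in WT and XiΔXist, nearly all CAST, and none in either hairpin pool. Gm7204 had 1547 and 1868 reads in WT and XiΔXist and likewise none with a hairpin. Of the 178 pseudogenes in the 129-only windows, 53 were at 0 in shSCR and 53 in shYY1, against 191 and 172 of 3617 protein coding genes. In XiΔXist 2 of these pseudogenes and 57 of these protein coding genes were at 0. The summed 129 share of all 178 pseudogenes was 46.7% and 47.7% in WT and XiΔXist and 68.6% and 68.2% in the hairpin pools. That of protein coding genes was 98.4% in each pool. Read length and depth both differed between these pools, and their part in the change was not tested.

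The other 2 of the 10 were protein coding. Picalm, a clathrin assembly protein in the block of chromosome 7, had 39.8% 129 reads of 16704 in WT, 40.8% of 19002 in XiΔXist, 53.3% of 435 in shSCR and 59.5% of 402 in shYY1. It held 10059 of the 10590 CAST reads of that block in WT. Anp32e, a histone chaperone for H2A.Z, was at 49.5% of 2890, 52.1% of 3731, 51.0% of 98 and 54.0% of 63 reads. Neither had a near-identical copy by the criterion above. In the block of Picalm, 178 of 184 genes were at 95% or more in WT.

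Imprinted genes are transcribed mainly from the copy of 1 parent, and the list of 61 such genes was used to see how this appears in a 129-only window. Of 55 genes on the 14 autosomes, 33 had 10 or more reads in WT and 13 lay in 129-only windows. Of these 13, 3 lay between 5% and 95% 129 reads and 10 were at 95% or more, the latter including genes known for opposite parental copies. On chromosome 7, the maternally expressed cell-cycle inhibitor gene Cdkn1c gave 90 of 90 reads from 129 in WT, which allows a CAST share of up to 3.33%. The paternally expressed noncoding RNA Kcnq1ot1 of the same cluster gave 100% of 23372 reads after rounding, and 100% in the 3 other pools. On chromosome 17, Igf2r, the maternally expressed receptor that clears IGF2, was at 99.3% of 298 reads, and its paternally expressed antisense RNA Airn at 100% of 22. Without a stated strand setting, reads of Airn and Igf2r, which overlap, cannot be told apart.

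Peg3, a paternally expressed zinc finger gene, gave 1744 of 1744 reads from 129 in WT, and 98 and 100 reads in the hairpin pools were all 129, but only 4 reads were counted in XiΔXist. H19 (10 reads), Osbpl5 (393), Cd81 (390) and Usp29 (21) were at 100% in WT and Nap1l4 (168) at 98.8%. The others were H13 at 73.1% of 547, Plagl1 at 80.5% of 226 and Mcts2 at 47.3% of 446 reads; Mcts2 is a retrogene inside H13 and their reads overlap. Outside the 129-only windows, the paternally expressed genes Peg10, Sgce, Peg12 and Snrpn gave 0%, 0.150%, 0.137% and 0% of 1762, 1333, 732 and 31 reads from 129 in WT, and the maternally expressed Grb10 gave 100% of 1031. Of the 20 measured imprinted genes outside, 7 were at 5% or less, 1 (Grb10) was at 95% or more and 12 lay between.

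Among the fibroblast markers 3 lay in 129-only windows. Fn1, which encodes fibronectin, was at 99.9% or 100% in the 4 pools from 5125 to 9644 reads, and Prrx1 is given above. Col3a1, the chain of type III collagen, was at 96.6% of 1550 reads in WT, 98.0% of 3159 in XiΔXist, 94.4% of 71 in shSCR and 99.4% of 176 in shYY1. Of the other lists, Epcam (14 reads in WT) and Cdh5 (12 reads) lay in 129-only windows, at 100%.

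The share of the both-allele windows moved between pools on some chromosomes that also carry 129-only blocks. On chromosome 2 the median over both-allele windows was 47.1%, 47.9%, 71.3% and 71.2% in WT, XiΔXist, shSCR and shYY1, and on chromosome 7 it was 41.7%, 39.5%, 67.1% and 66.6%. On chromosome 1 it was 76.5%, 84.2%, 88.9% and 89.1%, from only 15, 13, 12 and 12 windows, and was thus already higher in XiΔXist. On the same chromosomes the median of the 129-only windows was 100% in each pool. On chromosome 3, which varied least, the both-allele median lay between 52.9% and 53.2%. Other chromosomes moved more. Chromosome 16 was at 59.5% in WT and 52.1% in XiΔXist, and chromosome 10 at 51.3% in XiΔXist and 57.8% in shYY1. The 30% to 70% range for outer windows was set on WT. The hairpin pools also differed from the other pools in read length and mitochondrial share. Because the samples of a group are pooled, the difference of the hairpin pools on chromosomes 1, 2 and 7 has no replicate check. Its cause was not tested.

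**Figure D5:**
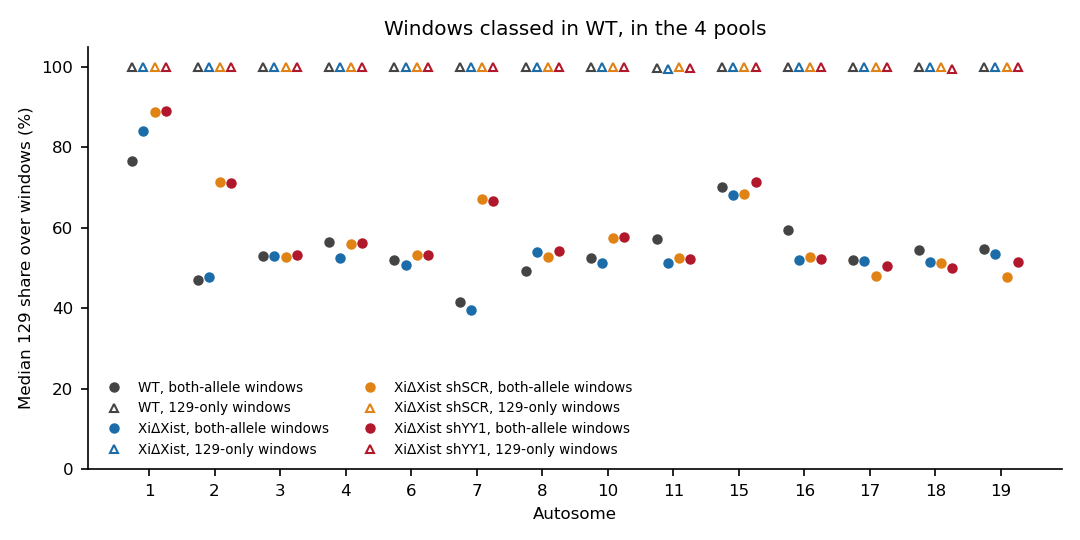
Median 129 share over windows (y axis, %) by autosome (x axis) in the 4 pools, for windows that were 129-only in WT (triangles) and windows with both alleles in WT (circles). The triangles stay at 99.4% or more in all pools, whereas the circles of chromosomes 2 and 7 are at 39.5% to 47.9% in WT and XiΔXist and at 66.6% to 71.3% in shSCR and shYY1. Those of chromosome 1 are at 76.5%, 84.2%, 88.9% and 89.1% in WT, XiΔXist, shSCR and shYY1.

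Whether depletion of YY1 altered the shares was tested on the pools with and without YY1 hairpins, which the rule did not use. Reads were summed per window over genes with 10 or more reads in both pools, and a two-sided Fisher's exact test was adjusted over all 1898 windows of all chromosomes by the Benjamini-Hochberg procedure. The test sets 1 pool of libraries against another and has no replicate check of the conditions. An adjusted p under 0.05 was found for 62 windows, or 3.27% of those tested. Of 648 129-only windows 12 passed (1.85%), 8 with a higher and 4 with a lower 129 share in shYY1, and of 639 both-allele windows 31 passed (4.85%). In 544 of the 648 the shares of the 2 pools lay within 1 percentage point, as they did in 138 of the 639 both-allele windows. The median difference was 0 in each of these sets. The 129-only windows were chosen for a high 129 share, which leaves few CAST reads in which a difference could be found. Their lower rate and closer shares therefore cannot show whether YY1 depletion affected them less than the both-allele windows.

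The windows that passed mostly held a few genes with CAST reads. In chr1:136000001-137000000 the summed share was 92.6% in shSCR and 96.5% in shYY1, 3.83 percentage points higher (adjusted p of Fisher's exact test 0.0123). Kif14, a mitotic kinesin, was at 86.1% of 187 and 94.9% of 254 reads there, and at 96.3% of 1231 in WT. The window chr7:3000001-4000000 fell by 1.65 percentage points (adjusted p of Fisher's exact test 0.0113), and there the ribosomal protein gene Rps9 was at 99.3% of 580 reads in shSCR and 94.8% of 542 in shYY1. In chr1:150000001-151000000 the pseudogene Rbm3-ps was at 86.0% of 737 and 79.8% of 873 reads.

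Total level was compared between XiΔXist and WT on log2(CPM + 1), for genes with 50 or more reads in both pools together. The median log2 ratio was -0.13 over 3741 genes of 129-only windows, -0.11 over 3618 genes with both alleles in both pools and -0.12 over all 7619 genes of the 14 autosomes, so the 129-only genes lay within 0.01 of the background. With median-of-ratios scaling the sign turned, to 0.02. Of the 129-only genes, 123 (3.29%) were over 2-fold higher and 254 (6.79%) over 2-fold lower in XiΔXist, against 224 (2.94%) and 484 (6.35%) of the 7619 genes. These shares lay near the background, and they have no replicate check. Windows that were 129-only in WT and had both alleles in XiΔXist held 24 such genes, with a median of -0.15 for all reads and 0.00 for CAST reads.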

How the data were processed

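The authors pooled the 2 samples of each group, aligned reads with TopHat to mm10 (GRCm38) with strain differences masked, dropped reads of low mapping quality, split the remainder by strain using SNPsplit and summarised exonic reads per gene using featureCounts 1.6.3; the annotation release and strand setting are not given in the sources used here. The deposited values are raw counts per Ensembl gene and allele, without normalization. Of 46078 gene IDs, 45143 matched GENCODE M21 (GRCm38), and the other 935 held at most 0.0925% of the reads of a pool. Reads that cover no strain difference are not counted, so genes poor in such positions are poorly measured. Shares carry Wilson 95% intervals, and a count of 0 allows 3 counts; both cover counting error only.

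Shares, windows, blocks and Fisher's exact tests were computed with scipy 1.17.1, pandas 2.3.3 and numpy 2.4.6 under Python 3.11.15, and were tested on simulated reads. Plots were drawn with matplotlib 3.10.9. Copies were searched with blastn 2.17.0 (50% or more of the longest transcript at 90% identity or more, no overlap in the genome). Windows at 5% or less were called CAST-only (18 in WT). Genes were named by a rule: the outermost and the leading genes of the 5 longest blocks, the 10 leading CAST-read genes, list members and the genes at the limit; border genes, genes of discordant windows and genes of windows that passed the Fisher test were chosen after their values were seen. The windows, lists and alternatives were chosen with earlier results of these data known. Promoter sequences are from RefSeq. A result among the windows that passed the Fisher test is not reported here.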

Additional observations from a re-analysis of the deposited data

How the results depend on the processing

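No paired analysis was possible because the deposited columns pool the samples of a group and carry no replicate numbers; for the same reason no replicate could be left out. With 2 Mb and 0.5 Mb windows, 407 and 1090 windows were 129-only in place of 703, by construction. Long blocks numbered 73, and 45 when 1 window below the limit was passed over. The share of 129-only windows that recurred in XiΔXist (97.4%) was 98.5% with a minimum of 20 reads, 98.6% with protein coding genes only and 99.5% with genes that reached the minimum in all 4 pools. In shSCR (95.9%) it was 93.1% at a limit of 0.99 and 97.5% with genes at the minimum in all 4 pools, and in shYY1 (96.3%) it was 94.1%, 97.8%, 97.7% with 2 Mb windows and 93.9% from summed reads. For YY1, 35 of the 129-only windows had median shares that differed by 0.03 or more, in place of 12 that passed the Fisher test. The total level of XiΔXist against WT (-0.13) was 0.022 with median-of-ratios size factors. The cause of these shifts was not tested beyond the construction named. The other alternatives kept these counts within 1.5 times and the percentages within their intervals. In the hairpin pools, which are the shallowest, many windows rest on few genes, and pooled columns hide the spread between samples.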

Other observations

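The reverse class was rare on the 14 autosomes. In WT 18 windows had a median 129 share of 5% or less, of which 14 rested on 1 gene and none on more than 3, whereas the 129-only windows held a median of 5 and up to 39 genes. XiΔXist, shSCR and shYY1 held 15, 13 and 11 such windows.

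Protein coding genes with intermediate shares also started in 129-only windows. Of those named here, Crim1 and Mapre1 lay beyond Fez2 and Commd7, on the both-allele side of a border between genes that crossed the outermost window of the block. Hs2st1, a heparan sulfate sulfotransferase, was at 76.7% of 24720 WT reads and at 76.5%, 82.7% and 82.5% in the XiΔXist, shSCR and shYY1 pools, and Crim1, a transmembrane regulator of BMP signalling, at 64.1%, 59.8%, 59.9% and 57.8%. Bub1, a kinase of the spindle checkpoint on chromosome 2, was at 55.7% of 9312 and 58.6% of 12778 reads in WT and XiΔXist and at 92.4% of 118 and 88.6% of 149 in shSCR and shYY1. Mapre1, a microtubule end-binding protein gene on the same chromosome, was at 69.5%, 71.7%, 93.3% and 93.1%.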
